A study of Mus musculus with 6 samples.

Results

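The 38 genes described here encode lysosomal acid hydrolases, the activator proteins that present lipids to them, and proteins of the lysosomal membrane. They were picked by symbol from a list drawn up with earlier results of these data known, and all 38 were found among 31591 transcript clusters tested, a transcript cluster being the set of array probes that stands for a gene. For each gene the cluster with the highest mean over the 6 arrays was used. That choice mattered for Arsb alone, the 1 member with several clusters. The cluster of Glb1 also carries the symbol Tmppe, so its values cannot be assigned to Glb1 alone.

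The series asked how gene expression in fat macrophages changes in obesity produced by diet. Epididymal fat of male mice of the strain C57BL/6J was digested with collagenase, and macrophages were selected on magnets with BM8, an antibody to the surface antigen that Adgre1 encodes. Mice were put on a normal chow diet (NCD, lean) or a high-fat diet with 60% fat (HFD, obese) at 6 weeks of age and kept on it for 16 weeks, to an age of 22 weeks. Each diet had 3 pools, of 20 mice each for NCD and 10 mice each for HFD, and 100 ng of total RNA from each pool was put on 1 Affymetrix array. The arrays are called NCD1, NCD2, NCD3, HFD1, HFD2 and HFD3, and values by array follow this order. Replicates are pools, so how single mice vary cannot be seen. Expression is given as log2 units, in which a step of 1 is 2-fold. Changes are HFD minus NCD with the standard error from limma, and genes count as called where the adjusted p is below 0.05. In RNA from a selected cell population, more cells of a type and more RNA per cell cannot be told apart.

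Lysosomes are acidic organelles in which macrophages digest what they have taken up: glycosaminoglycans and glycoproteins of the matrix, sphingolipids and cholesterol esters of dead cells and lipoproteins, proteins and nucleic acids. Each hydrolase removes a particular bond, so loss of 1 enzyme lets its substrate pile up, as in the lysosomal storage diseases. Many of these genes are known targets of TFEB, TFE3 and MITF, transcription factors that bind E-box sequences with the core CACGTG in promoters (the CLEAR network). In obese fat, macrophages around dying adipocytes are known for a large lysosomal compartment and for lipid handling.

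Promoter sequences are shown first because this motif is what many of the genes are known to share, independently of the arrays. Promoter windows of 300 bases, from 250 before to 50 after a start site, were taken from RefSeq on GRCm38.p6 and matched 33 of the 38 members; Hgsnat, Galns, Aga, Asah1 and Npc1 were not matched. Both strands were searched for CACGTG and for a longer form that contains it, TCACGTG. A related form, often called the M-box, is TCATGTG and was searched likewise. The longer form was found in the windows of 8 of 33 members (24.2%), against 1160 of 27025 genes in the table (4.29%), and all 8 windows with CACGTG had this longer form (8.09% of all genes had CACGTG). The M-box form was found in 5 of 33 (15.2%, against 4.31%), and any of the motifs in 12 of 33 (36.4%, against 12.1%). By call, TCACGTG was present in 3 of the 15 matched members that rose and in 5 of the 18 that were not called. Any of the motifs was present in 4 of the 15 and in 8 of the 18. Among the 18, Ppt1, Scarb2 and Grn held TCATGTG without TCACGTG, and their stretches are not printed below. A match describes the letters of the window only and is not a binding site.

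The stretches of the 4 members that rose and hold TCACGTG or TCATGTG are given 5′ to 3′ on the gene's strand, with every match to either 7-base form on either strand in capitals. For Gla, Lamp1 and Mcoln1 the 250 bases before the start site are printed, and for Tpp1, whose matches lie 4 and 17 bases behind it, a short stretch.
Gla (chrX:134601006-134601255, minus strand): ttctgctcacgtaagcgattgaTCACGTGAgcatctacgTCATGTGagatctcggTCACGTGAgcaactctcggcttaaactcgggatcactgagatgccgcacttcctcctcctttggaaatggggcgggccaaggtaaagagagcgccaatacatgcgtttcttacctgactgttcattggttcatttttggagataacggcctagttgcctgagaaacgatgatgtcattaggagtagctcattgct
Lamp1 (chr8:13158911-13159160, plus strand): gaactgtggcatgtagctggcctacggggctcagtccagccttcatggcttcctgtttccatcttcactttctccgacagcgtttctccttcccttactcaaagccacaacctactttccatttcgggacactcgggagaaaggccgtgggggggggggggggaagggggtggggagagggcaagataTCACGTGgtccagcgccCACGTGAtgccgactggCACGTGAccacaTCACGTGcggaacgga
Mcoln1 (chr8:3500269-3500518, plus strand): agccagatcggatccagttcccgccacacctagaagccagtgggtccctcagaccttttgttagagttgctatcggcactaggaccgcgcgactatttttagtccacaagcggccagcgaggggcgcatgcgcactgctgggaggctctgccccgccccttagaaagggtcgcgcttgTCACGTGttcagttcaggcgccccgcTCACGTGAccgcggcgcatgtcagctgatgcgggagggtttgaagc
Tpp1 (chr7:105752207-105752236, minus strand): catgcTCATGTGacttatCACATGActaca

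Lamp1 held 4 CACGTG cores, all between 62 and 16 bases before the start site. Mcoln1 held 2, between 72 and 45 bases before it, and Gla held 2 far upstream, between 228 and 194 bases, with a TCATGTG between them. For comparison, the match nearest to the start site is given for the 5 members that hold TCACGTG and were not called, with 8 bases on either side; these were added after the values were seen.
Naglu (chr11:101070012-101070034, plus strand): ccttcaggTCACGTGgcccgagg
Glb1 (chr9:114401021-114401043, plus strand): cttctgagTCACGTGgcctacag
Sgsh (chr11:119355525-119355547, minus strand): ctgccgtgCACGTGAccgtgggg
Arsa (chr15:89477427-89477449, minus strand): actcagtgTCACGTGttgtctgc
Gaa (chr11:119267814-119267836, plus strand): ctgtgcgaTCACGTGtttgactc
Each of these 5 windows held 1 CACGTG core, at 74, 49, 29, 17 and 141 bases before the start site in the order printed. The 5 genes did not move alike: Naglu and Glb1 were at 0.66 ± 0.17 and 0.56 ± 0.22, Gaa at 0.08 ± 0.12, and Arsa and Sgsh at −0.22 ± 0.24 and −0.29 ± 0.12.

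Of the 38 members, 17 (44.7%) were higher in HFD macrophages, 0 were lower and 21 were not called. Over all 31591 genes tested 7.74% were called, 4.91% as higher and 2.83% as lower, a split of 63.4% higher that became 78.1% when each array was centred on its median. The median change was 0.01 (0.10 after that centring), against a median of 0.59 over the members. Of the 31591 genes, 14992 had means below a background level of 6.23 from probe sets without a target, against 0 members. With those genes left out, 1962 genes and 24 members were higher, so the share over all genes is lowered by dim ones. A change above 0 was seen in 33 of the 38, against 53.2% of all genes. The rises ran from 1.41-fold for Mcoln1 to 3.91-fold for Gla, and 10 were at least 2-fold (1.94% of all genes). On all 17 called genes every HFD array lay above every NCD array. This was also so for 9 of the 21 not called, making 26 of 38 in all, against 17.6% of all genes. Another 11 had overlapping groups, and for Sgsh every HFD array lay below every NCD array (12.8% of all genes). At an unadjusted limma p below 0.05 there were 25 members higher and 1 lower, which was Sgsh. Over all 31591 genes, 4183 were higher and 3501 lower at that threshold.

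**Figure D1:**
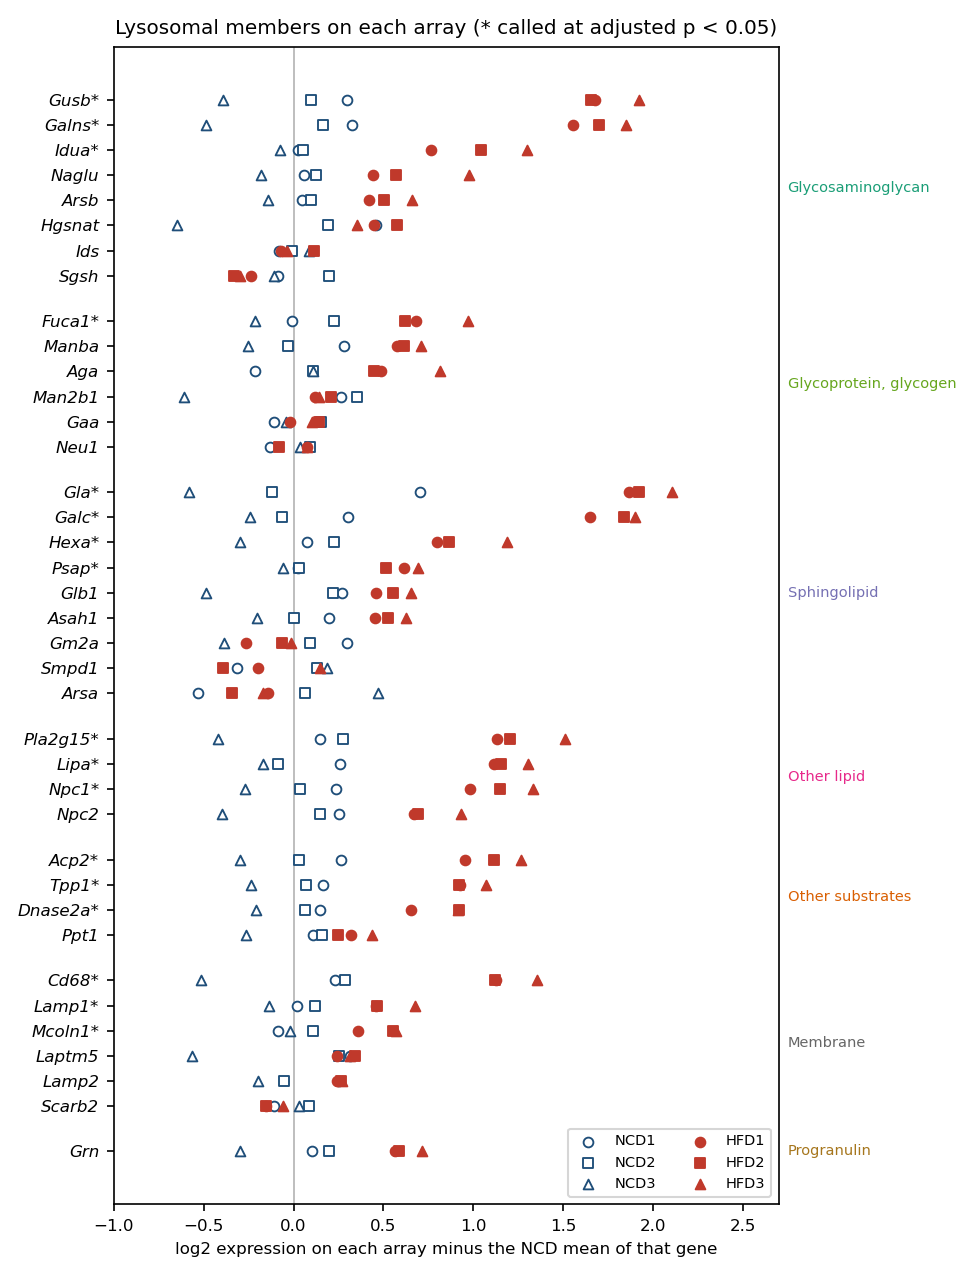
Expression of the 38 members on each array, as log2 units above or below the gene's NCD mean, grouped by class; open symbols are NCD arrays, filled symbols HFD arrays, and the symbol shape gives the replicate number. For the 17 genes marked with a star all filled symbols lie to the right of all open ones, and NCD3 is often the lowest array.

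Enzymes that take apart glycosaminoglycans, the long sugar chains of proteoglycans, ranged widely, from a change of −0.29 to 1.75, with 3 of 8 higher, 0 lower and a median of 0.60. The rises belonged to enzymes of different linkages. Gusb, the beta-glucuronidase, read 12.10, 11.90 and 11.41 on the NCD arrays against 13.48, 13.46 and 13.72 on the HFD arrays. It rose 3.37-fold (1.75 ± 0.20, adjusted p = 0.00784), and the groups were far apart compared with the spread within each. Galns, which removes sulfate from keratan sulfate and chondroitin sulfate, read 9.14, 8.98 and 8.33 on the NCD arrays against 10.37, 10.51 and 10.66 on the HFD arrays. Its rise was 3.25-fold (1.70 ± 0.22, adjusted p = 0.0111), with the NCD arrays less alike than the HFD arrays. Idua, the alpha-iduronidase of heparan and dermatan sulfate, stood at 9.91, 9.94 and 9.81 on the NCD arrays against 10.65, 10.93 and 11.18 on the HFD arrays, a 2.05-fold rise (1.04 ± 0.16, adjusted p = 0.0153). Here the spread lay in the HFD arrays, of which HFD3 was highest.

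The other enzymes of these chains had smaller changes and were not called. Naglu, the N-acetylglucosaminidase of heparan sulfate, read 8.54, 8.60 and 8.29 on the NCD arrays against 8.92, 9.05 and 9.45 on the HFD arrays, so its groups did not overlap, but it was not called (0.66 ± 0.17, adjusted p = 0.0658). Arsb, which desulfates dermatan sulfate, was at 0.53 ± 0.12 (adjusted p = 0.0516) and was called without NCD1 (0.55, adjusted p = 0.0418). Hgsnat, the membrane-bound acetyltransferase of heparan sulfate, was at 0.46 ± 0.28, with NCD3 far below the other NCD arrays. Ids, the iduronate sulfatase that acts just before Idua on the same chains, was at 0.00 ± 0.11 with a 95% interval of −0.26 to 0.27. Sgsh, the heparan sulfamidase, was at −0.29 ± 0.12 (adjusted p = 0.189). Idua was not called without HFD2, HFD3 or NCD2, at changes of 0.90 to 1.17 over the fits that left out 1 array, and Galns without HFD2, HFD3 or NCD2 (1.46 to 1.86). Without NCD2, HFD2 or HFD3 the number called in this class was 1, which was Gusb.

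Enzymes of glycoprotein sugar chains and of glycogen had 1 of 6 members higher, 0 lower and a median of 0.37. This was the lowest median of the classes with several members, but that rank depends on how Hexa and Glb1 are classed. With both counted here instead of in the sphingolipid class, the median was 0.57, above the 0.40 of the membrane proteins. The 1 called was Fuca1, the alpha-fucosidase, which read 11.97, 12.20 and 11.76 on the NCD arrays against 12.66, 12.60 and 12.95 on the HFD arrays (0.76 ± 0.16, 1.69-fold, adjusted p = 0.0404). That call was lost without HFD1, HFD2, HFD3, NCD2 or NCD3, at changes of 0.65 to 0.87. Manba, the beta-mannosidase, read 9.48, 9.16 and 8.94 on the NCD arrays against 9.77, 9.81 and 9.90 on the HFD arrays and was not called although its groups did not overlap (0.63 ± 0.15, adjusted p = 0.0582). It was called without NCD1 (0.78, adjusted p = 0.0113). Aga, which cuts the bond between asparagine and the sugar chain, was at 0.58 ± 0.15 (adjusted p = 0.0704). The other members of the class had overlapping groups: the alpha-mannosidase Man2b1 at 0.16 ± 0.25, the glycogen-degrading alpha-glucosidase Gaa at 0.08 ± 0.12 and the sialidase Neu1 at 0.02 ± 0.11. The 95% interval of Neu1, −0.24 to 0.29, does not reach the change of Fuca1, whereas that of Man2b1, −0.45 to 0.77, includes the change of Fuca1. Without NCD1 the class had 2 called, Fuca1 and Manba, and without any other array 0.

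The sphingolipid class had the largest single rises and also 3 of the 5 members with a negative change. Of 9 members 4 were higher and 0 lower, at a median of 0.56. Gla, the alpha-galactosidase that degrades globotriaosylceramide, read 12.20, 11.38 and 10.92 on the NCD arrays against 13.37, 13.43 and 13.61 on the HFD arrays. It rose 3.91-fold (1.97 ± 0.31, adjusted p = 0.0177), and its NCD arrays were more than a log2 unit apart while its HFD arrays lay close together. Galc, which removes galactose from galactosylceramide, read 11.21, 10.84 and 10.66 on the NCD arrays against 12.55, 12.74 and 12.80 on the HFD arrays. Its 3.48-fold rise (1.80 ± 0.17) had the smallest adjusted p of the members, 0.00507. Hexa, the alpha subunit of the hexosaminidase that acts on ganglioside GM2, read 15.16, 15.31 and 14.79 on the NCD arrays against 15.88, 15.95 and 16.27 on the HFD arrays, a 1.93-fold rise (0.95 ± 0.17, adjusted p = 0.0256).

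Psap encodes prosaposin, the precursor of the saposins that lift sphingolipids toward their enzymes. It read 17.82, 17.82 and 17.74 on the NCD arrays against 18.41, 18.31 and 18.49 on the HFD arrays, and rose 1.52-fold (0.61 ± 0.08, adjusted p = 0.0110), a small change with a small error. The other activator, Gm2a, which serves the hexosaminidase of which Hexa is a part, was not called, at −0.11 ± 0.19, with a 95% interval of −0.57 to 0.34. Glb1, the beta-galactosidase of ganglioside GM1 and keratan sulfate, read 10.89, 10.84 and 10.13 on the NCD arrays against 11.08, 11.17 and 11.27 on the HFD arrays and missed the threshold (0.56 ± 0.22, adjusted p = 0.180); the groups did not overlap, and NCD3 stood apart. The acid ceramidase Asah1 was at 0.53 ± 0.13 (adjusted p = 0.0612) and was called without NCD1 (0.63, adjusted p = 0.0203). Arsa, which desulfates sulfatide, and Smpd1, the acid sphingomyelinase, were at −0.22 ± 0.24 and −0.15 ± 0.19 with overlapping groups; with the endothelial covariate described further on they were at 0.32 and 0.10. Gla and Hexa were not called without HFD1, HFD2, HFD3 or NCD2, at changes of 1.68 to 2.32 and 0.80 to 1.06. Psap was not called without HFD3 (0.56 to 0.65). The class count was 2 without NCD2, HFD1 or HFD2 and 1, Galc, without HFD3.

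Genes for cholesterol esters, phospholipids and cholesterol export formed the most even class: 3 of 4 rose, 0 fell, the median was 1.17, and all 4 had every HFD array above every NCD array. Lipa, the acid lipase that hydrolyses cholesterol esters and triglycerides, read 16.76, 16.41 and 16.33 on the NCD arrays against 17.61, 17.65 and 17.80 on the HFD arrays. It rose 2.28-fold (1.19 ± 0.13, adjusted p = 0.00768). Pla2g15, a lysosomal phospholipase A2, read 12.36, 12.49 and 11.79 on the NCD arrays against 13.34, 13.42 and 13.73 on the HFD arrays and rose 2.43-fold (1.28 ± 0.21, adjusted p = 0.0195). Npc1, the membrane protein that exports cholesterol from the lysosome, read 11.81, 11.61 and 11.30 on the NCD arrays against 12.55, 12.72 and 12.91 on the HFD arrays and rose 2.23-fold (1.15 ± 0.17, adjusted p = 0.0144). Npc2, the soluble carrier that hands cholesterol to Npc1, read 11.24, 11.14 and 10.59 on the NCD arrays against 11.66, 11.68 and 11.92 on the HFD arrays and missed the threshold (0.77 ± 0.20, adjusted p = 0.0660). It was called without NCD1 (0.89, adjusted p = 0.0305). The 95% intervals of Npc1, 0.75 to 1.56, and Npc2, 0.30 to 1.23, overlap, and the difference between the genes was not tested. Pla2g15 was not called without HFD1, HFD2, HFD3 or NCD2 (1.07 to 1.42), nor Npc1 without HFD2, HFD3 or NCD2 (1.02 to 1.27). The class count was 2 without HFD1 and 1, Lipa, without NCD2, HFD2 or HFD3.

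Hydrolases of other substrates had 3 of 4 higher, 0 lower and a median of 0.90. Acp2, the lysosomal acid phosphatase, read 12.07, 11.84 and 11.51 on the NCD arrays against 12.76, 12.93 and 13.07 on the HFD arrays (2.16-fold, 1.11 ± 0.17, adjusted p = 0.0168). Tpp1, the tripeptidyl peptidase, read 15.11, 15.01 and 14.70 on the NCD arrays against 15.86, 15.86 and 16.01 on the HFD arrays (1.96-fold, 0.97 ± 0.13, adjusted p = 0.0115). Dnase2a, which digests the DNA of engulfed cells, read 8.77, 8.68 and 8.41 on the NCD arrays against 9.28, 9.54 and 9.54 on the HFD arrays (1.78-fold, 0.83 ± 0.14, adjusted p = 0.0206). In each of the 3 the lowest HFD array lay above the highest NCD array by more than the HFD arrays' SD. Ppt1, which removes palmitate from proteins, read 12.26, 12.31 and 11.88 on the NCD arrays against 12.47, 12.40 and 12.59 on the HFD arrays and missed the threshold (0.34 ± 0.15, adjusted p = 0.227). The count of 3 fell to 1 without NCD2, Tpp1, and to 0 without HFD2 or HFD3, at changes of 0.96 to 1.24 for Acp2, 0.85 to 1.06 for Tpp1 and 0.73 to 0.92 for Dnase2a.

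Proteins of the lysosomal membrane had 3 of 6 higher, 0 lower and a median of 0.40. Cd68, a heavily glycosylated relative of the Lamp proteins used as a macrophage marker, read 16.41, 16.46 and 15.67 on the NCD arrays against 17.31, 17.30 and 17.53 on the HFD arrays. It rose 2.30-fold (1.20 ± 0.22, adjusted p = 0.0268), and NCD3 lay well below the other NCD arrays. Lamp1, the major glycoprotein that lines the lysosomal membrane, read 16.27, 16.37 and 16.11 on the NCD arrays against 16.71, 16.72 and 16.93 on the HFD arrays and rose 1.45-fold (0.53 ± 0.11, adjusted p = 0.0367). Mcoln1, the calcium channel whose promoter is printed above with that of Lamp1, read 9.09, 9.28 and 9.16 on the NCD arrays against 9.54, 9.73 and 9.75 on the HFD arrays and rose 1.41-fold (0.49 ± 0.11, adjusted p = 0.0497), close to the threshold. Lamp2, the close relative of Lamp1, was at 0.26 ± 0.13 with a 95% interval of −0.05 to 0.57, which overlaps the interval of Lamp1, 0.27 to 0.80. Lamp2 was called without NCD1, at 0.38, with an adjusted p barely below 0.05. Laptm5, a transmembrane protein of blood cells, read 12.41, 12.35 and 11.53 on the NCD arrays against 12.33, 12.44 and 12.41 on the HFD arrays; without NCD3 its change was 0.02. Scarb2, an abundant protein of the lysosomal membrane, was at −0.12 ± 0.10 with a 95% interval of −0.37 to 0.13. Cd68 was not called without HFD1, HFD2, HFD3 or NCD2 (0.94 to 1.34), and Lamp1 without HFD1, HFD2, HFD3, NCD2 or NCD3 (0.46 to 0.59). Mcoln1 was called in 0 of the 6 fits that left out 1 array (0.45 to 0.56), and the class count was 0 without NCD2, HFD1, HFD2 or HFD3 and 1, Cd68, without NCD3.

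Grn encodes progranulin, a secreted protein that is cut into granulins inside lysosomes. It read 15.11, 15.21 and 14.71 on the NCD arrays against 15.58, 15.60 and 15.73 on the HFD arrays, without overlap between the diets, and missed the threshold (0.62 ± 0.15, 1.54-fold, adjusted p = 0.0543). It was called without NCD1 (0.67, adjusted p = 0.0462).

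**Figure D2:**
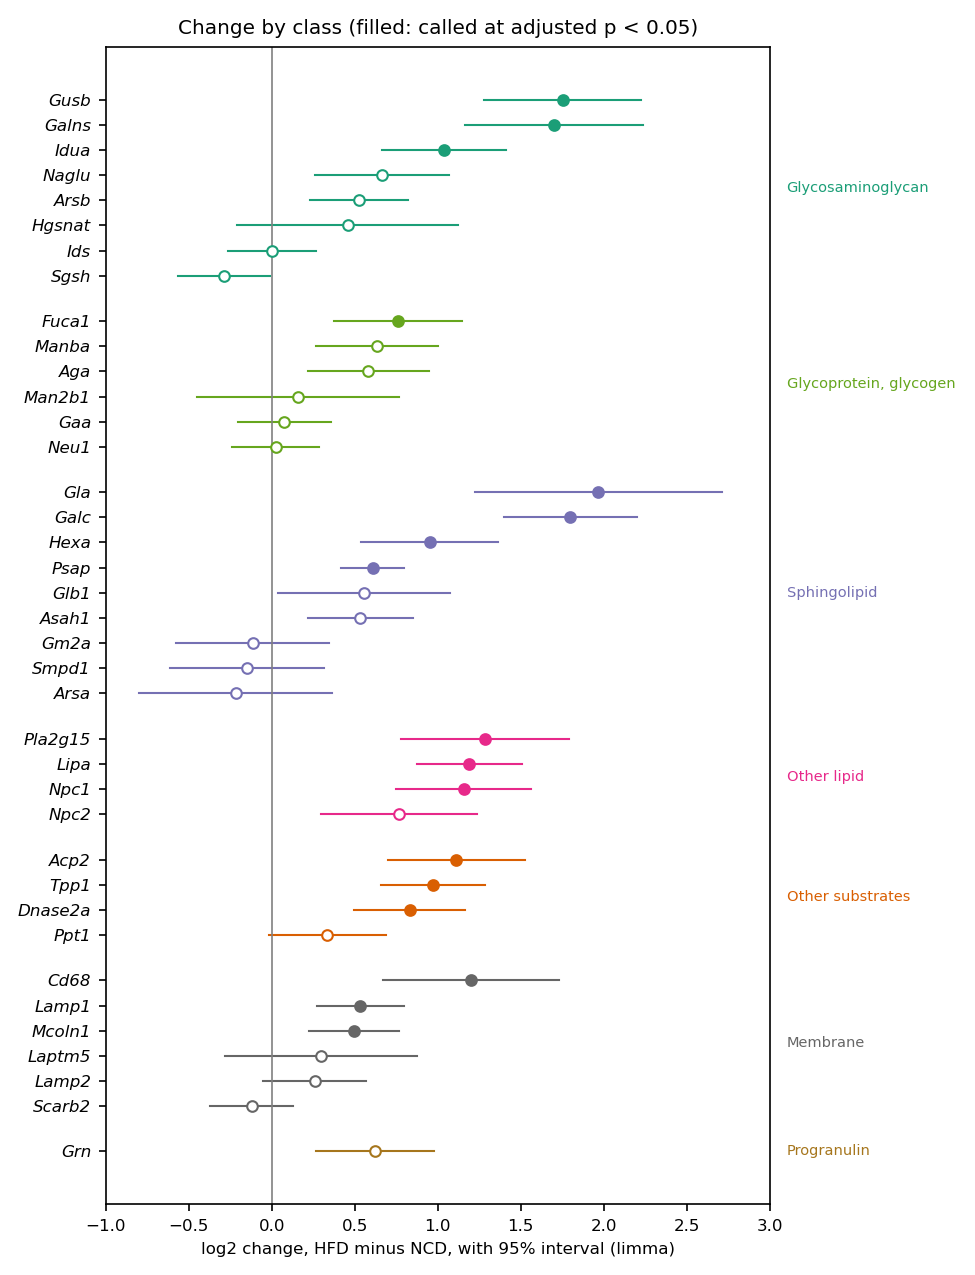
Log2 change between diets, HFD minus NCD, for each member with its 95% interval from limma, coloured by class; filled points passed an adjusted p of 0.05. The changes run from −0.29 for Sgsh to 1.97 for Gla, and the called genes are spread over all 6 classes with several members.

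Set side by side, the 13 lipid members had 7 higher with a median of 0.77, the 14 glycan members 4 higher with a median of 0.56, and the remaining 11 had 6 higher with a median of 0.53. The share called was above the 4.91% of all genes in each. To compare classes on the same arrays, each gene was centred on its mean over the 6 arrays and averaged by class. The lipid minus glycan difference was −0.04, −0.17 and −0.12 on the NCD arrays and 0.10, 0.08 and 0.15 on the HFD arrays, a shift of 0.22 with no overlap between diets. Within the lipid genes, the class of cholesterol and phospholipid minus the sphingolipid class was at −0.11, −0.19 and −0.36 on the NCD arrays and at 0.17, 0.23 and 0.26 on the HFD arrays, a shift of 0.44. Within the glycan genes, the glycoprotein class minus the glycosaminoglycan class was at 0.06, 0.22 and 0.26 on the NCD arrays and at −0.12, −0.22 and −0.19 on the HFD arrays, a shift of −0.36. These class differences are descriptions without a test. The members of a class are few and unequal, as the 95% intervals of Gla and Arsa, 1.22 to 2.71 and −0.80 to 0.36, show within 1 class.

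The members did not share 1 level of spread. The SD between arrays was wider in NCD than in HFD for 32 of 38, with a median SD of 0.24 in NCD and 0.12 in HFD (0.15 and 0.11 over all genes). NCD3 was the lowest array for 29 of the 38 and for 16 of the 17 that rose, and HFD3 the highest for 26 and 16. For the 17 the groups did not overlap, so only an NCD array could be lowest and only an HFD array highest. These counts of arrays, and the 32 of 38, were not made over all genes. They are therefore not shown to be particular to the members. The mean deviation of all 38 from the 6-array mean was −0.21, −0.22 and −0.55 on the NCD arrays and 0.24, 0.30 and 0.44 on the HFD arrays.

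Markers of macrophages, which the selection should hold, were present on all arrays: the lowest group mean of the 10 was 10.86, for Fcgr1, against a background level of 6.23 from probe sets without a target. Their mean level was 14.91, 14.98 and 14.27 on the NCD arrays and 14.82, 14.93 and 15.00 on the HFD arrays, so NCD3 was lowest here as well; of the 10, Fcgr1 rose (1.43), Mertk fell by 0.49 log2 units and 8 were not called. Fcgr1 was not called without HFD2 or HFD3 (1.23 to 1.60), and Mertk only without NCD1 kept its call (−0.52 to −0.46). The median of the 10, 0.07, changed sign in several other fits, from −0.13 to 0.25 with 1 array left out. Both genes are named because they were the sole calls. Adgre1, which encodes the antigen of the selection and is named for that reason, read 16.08, 15.93 and 15.05 on the NCD arrays against 16.54, 16.55 and 16.70 on the HFD arrays, so every HFD array lay above every NCD array and NCD3 was lowest. Its change was 0.91 ± 0.27, and it missed the threshold (adjusted p = 0.0930), but was called without NCD1 (1.11) or NCD3 (0.59).

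Markers of other cells also differed between arrays. The mean of 10 endothelial markers ran from 11.99 to 14.43 in NCD and from 11.15 to 12.57 in HFD (median change −1.78). Of the 10, limma called 0, and 8 were lower at an unadjusted p below 0.05, against 3501 of all 31591 genes. NCD1 was the low NCD array here, and without it 10 of 10 were called lower (median −2.56). The mean of 8 smooth muscle markers ran from 10.90 to 12.89 in NCD and from 8.08 to 9.31 in HFD, with 7 lower, a count that was 0 without NCD2, HFD2 or HFD3, 4 without HFD1 and 8 without NCD1. The mean of 7 mesothelial markers ran from 7.50 to 8.09 in NCD and from 5.70 to 5.89 in HFD, below the background level, with 7 lower. The mean of 8 fibroblast markers ran from 8.47 to 8.79 in NCD and from 9.45 to 10.06 in HFD, with 6 higher, or 2 without NCD2 or HFD2. The mean of 5 neutrophil markers was 7.88, 8.54 and 8.28 on the NCD arrays and 6.65, 6.59 and 9.89 on the HFD arrays, so HFD3, the array on which 26 members were highest, stood apart. Without HFD3, 2 neutrophil markers were called lower, at a list median of −1.97. The mean of 3 B cell markers was 11.16 on NCD1 and between 8.99 and 9.69 on the other arrays. Of the adipocyte, neutrophil, T cell, B cell, dendritic cell and eosinophil markers 0 were called, and at an unadjusted p below 0.05 limma had 1 adipocyte and 1 dendritic marker lower and 1 dendritic marker higher. Leaving out 1 array called 1 adipocyte marker higher without HFD1, and 1 dendritic marker in each direction without NCD1. With the endothelial mean as a covariate 3 members were called, Gusb, Galc and Lipa, and the median of the 38 was 0.46. With the macrophage mean as a covariate, an alternative added after the values were seen, 15 were called at a median of 0.51. The endothelial markers themselves differed between the diets (median −1.78), and the macrophage mean includes Fcgr1 and Mertk, which were called. With 6 arrays these covariate fits cannot fully separate cell content from diet. The part of endothelial, macrophage, smooth muscle, mesothelial, fibroblast, neutrophil and B cell RNA in these results was not tested.

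**Figure D3:**
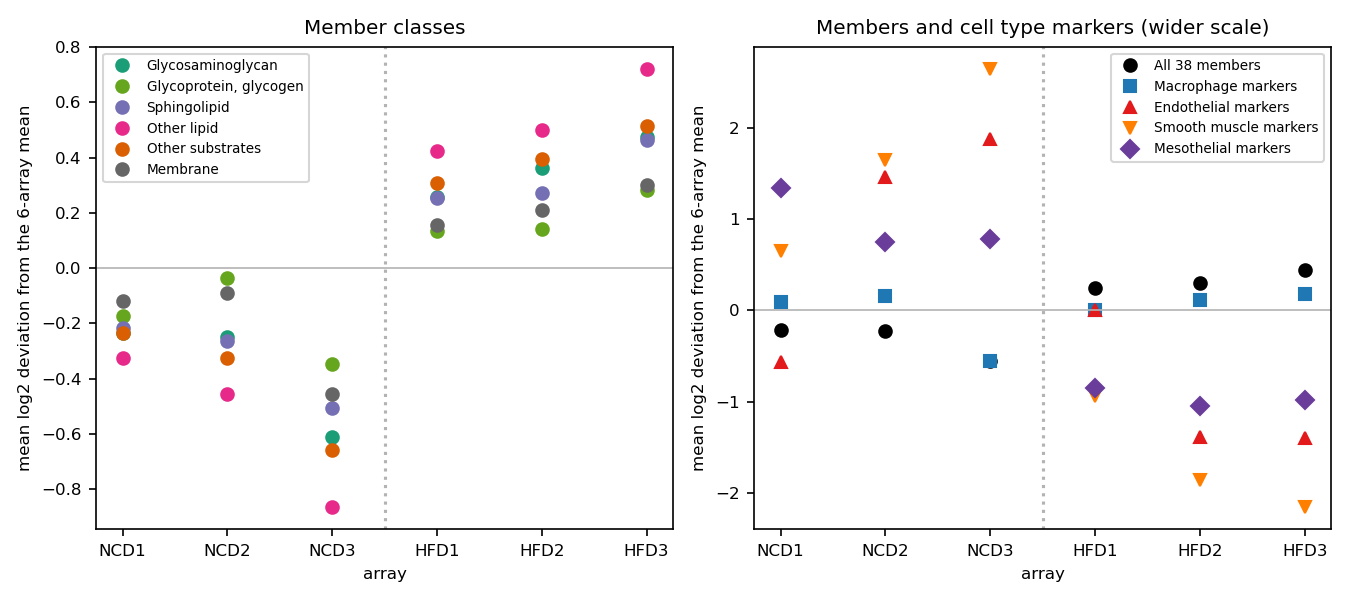
Mean log2 deviation from the 6-array mean on each array, on the left for the 6 member classes with several genes and on the right, on a wider scale, for all 38 members and for marker lists of 4 cell types. All member classes lie below 0 on the NCD arrays and above 0 on the HFD arrays; the macrophage markers are lowest on NCD3, at −0.55.

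How many members were called depended on which arrays entered the fit. Leaving out an NCD array gave 22, 5 and 14 for NCD1, NCD2 and NCD3, and leaving out an HFD array gave 10, 4 and 3 for HFD1, HFD2 and HFD3, with 0 lower in each. Over all genes, 2520, 311 and 980 were higher without NCD1, NCD2 and NCD3. Without HFD1, HFD2 and HFD3 there were 733, 298 and 321, so the dependence was not particular to the members. The median change of the 38 moved much less, from 0.50 to 0.68. Gusb, Galc and Lipa kept their call in all 6 of these fits, at 1.55 to 1.90, 1.68 to 1.95 and 1.10 to 1.32, and they were also the genes called with the endothelial covariate, at 1.41, 1.44 and 0.91. Gla, with the largest change, was at 1.26 with that covariate (adjusted p = 0.0625). Fits on 5 arrays have 1 residual degree of freedom less, and a lost call is not by itself a smaller change.

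**Figure D4:**
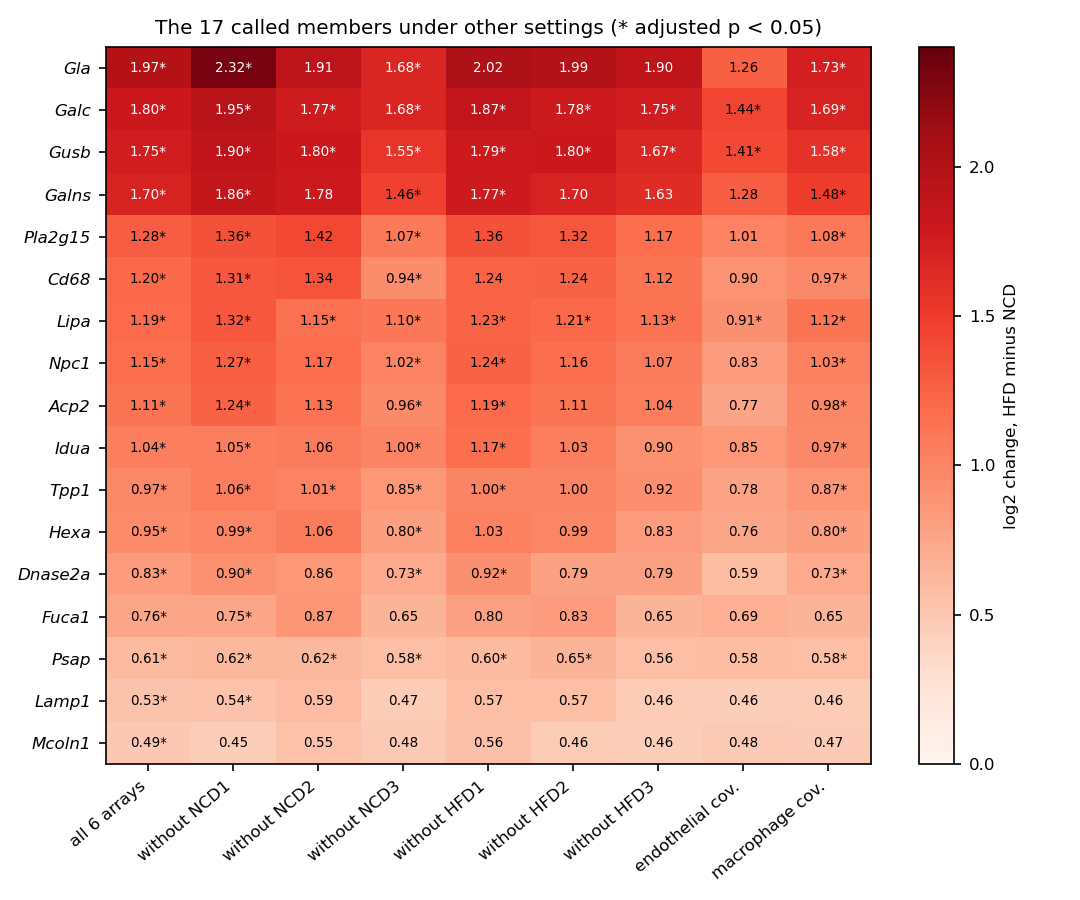
Log2 change of the 17 called members (rows) with all 6 arrays, with 1 array left out, and with the mean of endothelial or of macrophage markers as a covariate (columns); a star marks an adjusted p below 0.05. The rows of Galc, Gusb and Lipa carry a star in every column, whereas Mcoln1 has one only with all 6 arrays.

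The rest of the lysosomal machinery, in 7 lists with 117 measured genes, had 55 genes higher and 2 lower. Over all genes 4.91% were higher and 2.83% lower, shares that also stand beside each list count below. The number higher in the 7 lists was 20 when NCD2 was left out, and 26, 16 and 15 for HFD1, HFD2 and HFD3, and with the endothelial covariate it was 18. In the same fits 311, 733, 298, 321 and 346 of all genes were higher. The proton pump, which acidifies the lysosome so that the hydrolases can work, had the largest share: 14 of 17 subunits rose, 0 fell and the median was 1.02. That count was 6 without NCD2 or HFD2, 8 without HFD1 and 5 without HFD3. Atp6v0d2 rose 5.74-fold (2.52 ± 0.24), Atp6v1c1 3.93-fold, Atp6v0a1 3.60-fold and Tcirg1, a subunit known from osteoclasts, 2.96-fold. Among cathepsins and legumain, the lysosomal proteases, 8 of 14 rose and 0 fell (median 0.56), with the smallest adjusted p for Ctsk (3.88 ± 0.18), Ctsl (1.52 ± 0.15), Ctsb (0.55 ± 0.07) and Lgmn (0.96 ± 0.13). The count of proteases that rose was 2 without HFD2 or HFD3 and 4 without HFD1 or NCD2, and 1 was lower without NCD3. Ctsb was not called without HFD2 or HFD3 (0.51 to 0.57), and Lgmn without HFD2 or HFD3 (0.83 to 1.03).

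Genes that deliver hydrolases to lysosomes rose in 9 of 13 cases, with 0 lower and a median of 0.73. The count was 1 without NCD2, HFD2 or HFD3, 2 without HFD1 and 3 without NCD3. Igf2r, the large mannose 6-phosphate receptor, read 11.50, 12.00 and 12.17 on the NCD arrays against 13.72, 13.72 and 14.13 on the HFD arrays and rose 3.92-fold (1.97 ± 0.21, adjusted p = 0.00727). Gnptab, the phosphotransferase that starts the mannose 6-phosphate tag, rose 2.62-fold (1.39 ± 0.18), and Nagpa, which uncovers that tag, 1.55-fold. Sumf1, which activates the sulfatases, among them those of Galns, Arsb, Ids, Sgsh and Arsa, rose 1.72-fold (0.78 ± 0.12, adjusted p = 0.0158), while of those 5 sulfatases only Galns was called. Igf2r kept its call without each array, whereas Gnptab was not called without HFD2, HFD3 or NCD2 (1.27 to 1.56), Sumf1 without HFD1, HFD2, HFD3 or NCD2 (0.73 to 0.87) and Nagpa without HFD1, HFD2, HFD3, NCD2 or NCD3 (0.58 to 0.70).

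Other hydrolases had 7 of 22 higher and 1 lower (median 0.33). Among them Rnaset2a and Rnaset2b share 1 cluster, at −0.42 and not called. Its value is counted for both genes in every count of this list and in the 117. The number higher was 0 without HFD2 or HFD3, 1 without NCD2 and 3 without HFD1, and the number lower was 2 without NCD1 and 3 without NCD3. The phospholipase D family member Pld3 rose 2.71-fold, the tartrate-resistant phosphatase Acp5 2.89-fold, Creg1 1.91-fold and the dipeptidyl peptidase Dpp7 2.23-fold. None of these 4 was called without HFD2 or HFD3, Acp5, Creg1 and Dpp7 also not without NCD2, and Creg1 and Dpp7 also not without HFD1, at changes of 1.26 to 1.55 for Pld3, 1.34 to 1.66 for Acp5, 0.81 to 1.05 for Creg1 and 0.98 to 1.28 for Dpp7. The 1 lower was Plbd1, a phospholipase B-like protein named because it was the sole fall (−1.52 ± 0.32, adjusted p = 0.0392), which was not called without HFD1, HFD2, HFD3 or NCD2 (−1.76 to −1.21). Other membrane proteins had 13 of 32 higher and 1 lower (median 0.55). The number higher was 7 without NCD2 or HFD1, 5 without HFD2 and 6 without HFD3, and the number lower was 2 without NCD1. Gpnmb rose 5.72-fold, the cysteine importer Mfsd12 6.70-fold and the tetraspanin Cd63 3.17-fold, while the sialomucin Cd164 fell by 0.95 log2 units (adjusted p = 0.00703). These 4 kept their calls without each array.

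Subunits of the growth-controlling kinase complex mTORC1, and proteins that recruit it to lysosomes or regulate it there, had 4 of 14 higher and 0 lower (median 0.63): Fnip2 (2.00 ± 0.16), Rptor (0.79 ± 0.12), Rragd (0.75 ± 0.14) and Lamtor1 (0.94 ± 0.19). The count was 8 without NCD1, 1 without NCD2 or HFD3 and 2 without NCD3, HFD1 or HFD2. Rptor is a subunit of the complex itself. Fnip2 kept its call without each array; Rptor was not called without HFD2, HFD3 or NCD2 (0.73 to 0.90), Rragd without HFD1, HFD3, NCD2 or NCD3 (0.66 to 0.88) and Lamtor1 without HFD1, HFD2, HFD3, NCD2 or NCD3 (0.74 to 1.05). The regulators of lysosomal genes had changes above 0, but 0 of 5 were called by limma, with 4 higher at an unadjusted p below 0.05. Of all 31591 genes, 4183 were higher at that threshold. Mitf read 11.98, 10.99 and 10.50 on the NCD arrays against 12.43, 12.88 and 12.51 on the HFD arrays (1.45 ± 0.37, adjusted p = 0.0652); its NCD arrays were more than a log2 unit apart. Tfeb was at 0.49 ± 0.11 (adjusted p = 0.0508), their relative Tfec at 0.74 ± 0.21 (adjusted p = 0.0836) and Tfe3 at 0.46 ± 0.15 (adjusted p = 0.120). Zkscan3, a zinc finger protein described as a repressor of lysosomal genes, was at 0.15 ± 0.14 (adjusted p = 0.612). Tfeb was called without NCD1 (0.54, adjusted p = 0.0357), and so were Mitf (1.86) and Tfec (0.93). Of all 16 alternative fits, that one included, Tfeb was called in 6, Mitf in 5 and Tfec in 3. Transcript levels do not measure the activity of these proteins.

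**Figure D5:**
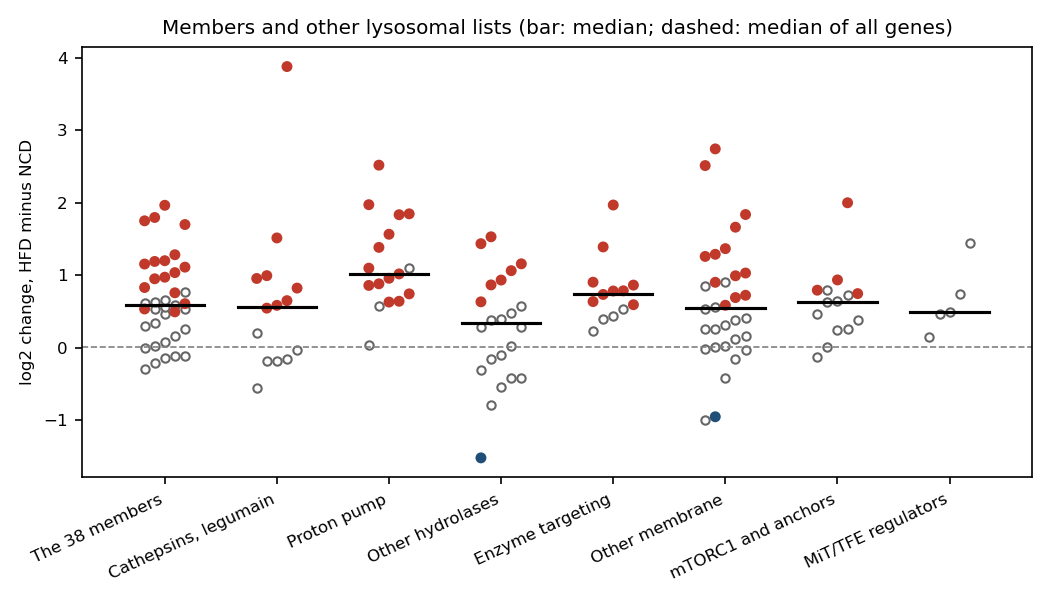
Log2 change, HFD minus NCD, of the 38 members and of the genes in 7 other lysosomal lists; filled points were called (red higher, blue lower), open points were not, bars give list medians and the dashed line the median of all genes, 0.01. The list medians lie between 0.33 and 1.02, with the proton pump highest.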

How the data were processed

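RNA of 6 pools, 3 per diet, was measured on 1 Affymetrix array each. The deposited values are log2 signals of transcript clusters, on a scale read from the values. The submitters' processing notes name RMA, Affymetrix Expression Console 1.4.1.46 and Transcriptome Analysis Console 3.1.0.5; its options, and the genome build behind the probe annotation, are not given in the sources used here. RMA makes the arrays' distributions alike, so a shift of all genes would not be seen, and the column medians ran from 5.95 to 6.03. No scanner values were used.

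Of 65956 clusters besides 6732 controls, 30604 had 1 gene symbol, 2146 several and 33206 none in the platform annotation, and 1135 symbols were updated through RefSeq. The brightest cluster of each gene gave 31591 clusters to test, 869 of them with several symbols. The background level, 6.23, is the 95th percentile of 23 antigenomic probe sets; 14992 clusters and 0 members had means below it. Changes were fitted with limma 3.58.1 in R 4.3.3 (lmFit and eBayes, the latter with a trend of variance on mean) over 3 against 3 arrays without covariates, and p-values were adjusted by Benjamini-Hochberg over all 31591. Errors are standard errors, and precision is limited by the number of arrays. The median standard error was 0.16 for members. The labels give separate pools, so p-values measure the spread between pools. On simulated data with 200 changed genes among 31591, the fit found 80.6% of 2-fold and 96.8% of 4-fold changes, with a mean of 11 false calls. The simulated noise was independent between genes and equally wide in both diets. The members had median SDs of 0.24 in NCD and 0.12 in HFD, so these rates need not hold for the arrays.

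Values by array are given for called members and for the largest uncalled change of each class, and at most 4 genes of each other list by adjusted p, with all regulators. The members, the 7 other lysosomal lists and the 11 marker lists were chosen with earlier results of these data known. Replicates with the same number were not treated as pairs. Some listed genes are not reported here. Alternatives left out each array in turn, added the replicate number, the endothelial or the macrophage mean, centred arrays on the median, left out dim clusters or several-symbol clusters, averaged clusters, weighted arrays, dropped the trend, and moved Hexa and Glb1 between classes.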

Additional observations from a re-analysis of the deposited data

How the results depend on the processing

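In none of the alternatives was a member lower, and no called member changed sign. Of the members not called in the main fit, Grn was called in 7 of 16 alternative fits. Arsb, Manba and Asah1 were called in 6, Npc2 in 5, Naglu and Aga in 3 and Lamp2 in 1. Leaving out 1 array gave 298 to 2520 genes higher and 118 to 2430 lower, 3 to 22 members higher, 1 to 4 of the glycosaminoglycan class, 0 to 2 of the glycoprotein class, 1 to 5 of the sphingolipid class, 1 to 4 of the other lipid class, 0 to 3 of the other substrates, 0 to 3 of the membrane proteins, and 15 to 68 genes higher and 1 to 5 lower in the other lysosomal lists. Uncalled values near 0 took both signs there: Ids −0.054 to 0.045, Neu1 −0.041 to 0.075, Gm2a −0.31 to 0.035, Man2b1 −0.15 to 0.33, Arsa −0.48 to 0.015, and the marker medians of adipocytes −0.46 to 0.056, dendritic cells −0.033 to 0.16 and macrophages −0.13 to 0.25. With the replicate number as a block (the replicate block), 71 genes were higher and 41 lower. In that fit 0 members were called in any of the 6 classes (0 each), with 3 of the other lysosomal genes higher and 0 lower. That fit has fewer residual degrees of freedom. The labels do not say whether same-numbered pools were processed together, and the numbers were not taken as pairs. Deviations of same-numbered arrays correlated at −0.458, −0.122 and −0.148, which with 3 arrays per diet cannot decide this. With the endothelial covariate, 346 genes were higher and 396 lower, with 3 members: 1 each of the glycosaminoglycan, sphingolipid and other lipid classes, 0 of the glycoprotein, other substrate and membrane classes, and 18 higher and 1 lower in the other lists; the macrophage marker median was −0.14, the endothelial one 0.0028, Hgsnat −0.015, Man2b1 −0.17, Arsa 0.32, Smpd1 0.10 and Laptm5 −0.072. With the macrophage covariate, chosen after seeing the data, the glycoprotein class had 0 and the membrane class 1, the macrophage and dendritic medians were −0.11 and −0.0012, and Man2b1 was −0.10. Median centring gave 2656 genes higher, and it and either filter on dim clusters gave 5 of the glycosaminoglycan and 3 of the glycoprotein class; after the filters the dendritic median was −0.37. Array weights gave 2466 genes higher and 2035 lower, 7 lower in the other lists, a macrophage median of −0.0050, Neu1 at −0.023 and 2 of the glycoprotein class, which also had 2 without the trend and with Hexa and Glb1 counted in it. The causes were not tested, other than that fits with fewer arrays or an added term have fewer residual degrees of freedom. All members had means above the background level of 6.23, Arsa being the nearest to it, at 7.56 in NCD and 7.34 in HFD.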
